A study of Homo sapiens with 24 samples.

Results

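The 10 genes followed here belong to the NF-kappaB pathway: the transcription factor genes NFKB1, NFKB2, RELA and RELB, the feedback genes NFKBIA, TNFAIP3 and BIRC3, and the adhesion genes ICAM1, VCAM1 and SELE. They were chosen by symbol and make up 10 of the 60564 rows of the expression table. All 10 reached 1 FPKM in at least 3 libraries, the condition for being tested, as did 15903 genes in all. FPKM counts sequenced fragments per length of transcript and relative to the library's total.

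The libraries came from the human neuroblastoma lines SK-N-BE(2) and SH-SY5Y, in which NDUFS6, an accessory subunit of mitochondrial complex I, had been lowered with lentiviral short hairpin RNA (knockdown) or raised with its full-length coding sequence (overexpression). Each of the 8 groups had 3 libraries: SK-N-BE(2) NDUFS6-knockdown and its empty vector control, SK-N-BE(2) NDUFS6-overexpression and its empty vector control, and the same 4 groups of SH-SY5Y. All cells, controls included, had been infected with lentivirus in polybrene and selected with puromycin for about a week, so no group is of uninfected cells. The sources used here give no number of hairpins or clones per group. The SH-SY5Y knockdown labels carry an extra number that the SK-N-BE(2) knockdown labels lack, and its meaning is not stated. The labels call the libraries biological replicates without saying whether they came from separate infections, so the p-values reflect the scatter among the 3 libraries of a group, which could be technical. All libraries carried the same batch label.

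NF-kappaB factors are dimers of Rel family proteins. In resting cells IkappaB proteins, such as the NFKBIA product, hold them in the cytoplasm. When receptors for tumour necrosis factor, interleukin-1 or microbial products signal, the IkappaB kinase (IKK) complex marks IkappaB for degradation and dimers of RELA with the NFKB1 product enter the nucleus (the canonical pathway), while a slower route through the kinase encoded by MAP3K14 processes the NFKB2 precursor and frees dimers with RELB (the non-canonical pathway). The factors bind DNA sites that begin with several G and end with several C, and they switch on their own inhibitors, NFKBIA and TNFAIP3, together with adhesion molecules that leucocytes bind on inflamed endothelium.

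The promoters of these genes are shown because shared binding letters are what these genes are known for, and no binding was measured here. Promoter sequences came from RefSeq (build GRCh38.p14), which had entries for 9 of the 10 genes, in 13 start sites. In the 250 bases upstream of each start, the 10-letter NF-kappaB consensus was searched on both strands, overlaps allowed. It was found in 8 of the 13 promoters, belonging to 7 of the 9 genes. Of all 35116 promoters in the table, 1828 (5.21%) held it, and of 27305 genes 6.28%. A looser form, GGGNNNNNCC on either strand, was in 12 of the 13 promoters but also in 54.43% of all promoters. Capitals mark the consensus match in the following stretches, each written 5′ to 3′ on the gene's own strand.
VCAM1: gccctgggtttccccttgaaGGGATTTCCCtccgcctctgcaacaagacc
SELE: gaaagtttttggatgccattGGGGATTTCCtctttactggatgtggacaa
BIRC3: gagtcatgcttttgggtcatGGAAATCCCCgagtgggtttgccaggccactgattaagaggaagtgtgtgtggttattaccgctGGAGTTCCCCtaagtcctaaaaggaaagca
TNFAIP3: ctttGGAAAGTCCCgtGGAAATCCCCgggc
NFKBIA: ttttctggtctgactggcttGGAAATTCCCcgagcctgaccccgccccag
NFKB1: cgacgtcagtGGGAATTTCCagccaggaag
NFKB2 start 2, first match: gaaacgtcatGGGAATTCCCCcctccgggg
NFKB2 start 2, second match: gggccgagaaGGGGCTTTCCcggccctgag
NFKB2 start 3, first match: aacccccaccGGGGCTTCCCggattctcct
NFKB2 start 3, second match: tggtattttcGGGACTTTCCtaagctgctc

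Positions are given from the RefSeq starts. The VCAM1 stretch is chr1:100719660-100719709 on the plus strand, and its match begins 62 bases upstream of the start. The SELE stretch is chr1:169734144-169734193 on the minus strand, with the match 94 bases upstream. BIRC3 had a pair of matches, 199 and 135 bases upstream, in chr11:102317265-102317378 on the plus strand. TNFAIP3 had its pair 67 and 55 bases upstream, in chr6:137867188-137867217 on the plus strand. The NFKBIA match was 81 bases upstream, in chr14:35404801-35404850 on the minus strand, and the NFKB1 match 49 bases upstream, in chr4:102501300-102501329 on the plus strand. The NFKB2 stretches, all on the plus strand, are chr10:102394461-102394490, chr10:102394490-102394519, chr10:102395519-102395548 and chr10:102395674-102395703, and the first of them holds overlapping matches that share 9 letters. The stretches of NFKB1 and TNFAIP3 and all but the chr10:102395519-102395548 stretch of NFKB2 overlap exons of those genes in GENCODE 29, as does a stretch of ICAM1.

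Some of these genes carry the same 10 letters. SELE, TNFAIP3 and BIRC3 share GGGGATTTCC, read on one strand or the other (GGAAATCCCC), which 38 of the 35116 promoters hold (0.108%). NFKB1 and NFKBIA share GGGAATTTCC (reverse complement GGAAATTCCC), found in 50 promoters (0.142%), and TNFAIP3 and NFKB2 share GGAAAGTCCC, found in 63 (0.179%). Neither ICAM1 nor RELA had a consensus match in this window, and RELB had no entry. ICAM1 shares 9 letters of the NFKBIA match, in capitals in the next line, a comparison chosen after the sequence was seen, and 145 promoters (0.413%) hold those 9 letters. The ICAM1 stretch is chr19:10270923-10270952 on the plus strand.
ICAM1: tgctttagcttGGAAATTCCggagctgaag

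Library sums of FPKM ranged from 249708 to 276091, and 12607 to 14018 genes per library reached 1 FPKM. The number of reads is unknown. NDUFS6 followed the labels: it stood at 1.33 ± 0.261 FPKM (SD, n = 3) after knockdown against 11.2 ± 1.63 in SK-N-BE(2), at 4.02 ± 0.939 against 11.5 ± 0.566 in SH-SY5Y, and after overexpression at 17.2 ± 2.07 against 12.8 ± 1.03 in SK-N-BE(2) and 208 ± 7.74 against 10.96 ± 0.679 in SH-SY5Y. The constructs thus changed NDUFS6 to unlike extents in the 2 lines. Tests were made with limma on log2(FPKM + 1), which understates changes of low genes, two-sided. Calls were made where the p adjusted by Benjamini-Hochberg over all 15903 genes was under 0.05.

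Many genes moved in every comparison, so a single call is common. Knockdown called 56.0% of tested genes in SH-SY5Y (26.3% higher) and 55.7% in SK-N-BE(2) (27.4% higher). Overexpression called 32.6% in SH-SY5Y (15.4% higher) and 29.7% in SK-N-BE(2). Of all calls, the share that were higher changed by over 10 points when every library was scaled to a fixed sum of FPKM: from 49.2% to 60.8% for knockdown and from 43.4% to 32.2% for overexpression in SK-N-BE(2), and from 47.0% to 35.7% for knockdown in SH-SY5Y. Scaling by median of ratios gave 53.8% for overexpression in SK-N-BE(2).

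In SH-SY5Y cells, NDUFS6 knockdown was accompanied by higher levels of all 10 genes. The levels after knockdown were above those of every other group of the study for each of the 10, with no overlap with the next highest group. SELE, NFKBIA and VCAM1 rose most, by 2.32, 1.84 and 1.66 on the log2(FPKM + 1) scale, and RELA least, by 0.16. The median change of the 10 was 1.35, against -0.01 over all tested genes. TNFAIP3 and SELE reached 1 FPKM in 3 libraries only, those of this knockdown, so both had to differ here to be tested at all, and the count is a description rather than support. In bulk RNA a larger share of expressing cells and more RNA per cell cannot be told apart.

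**Figure D1:**
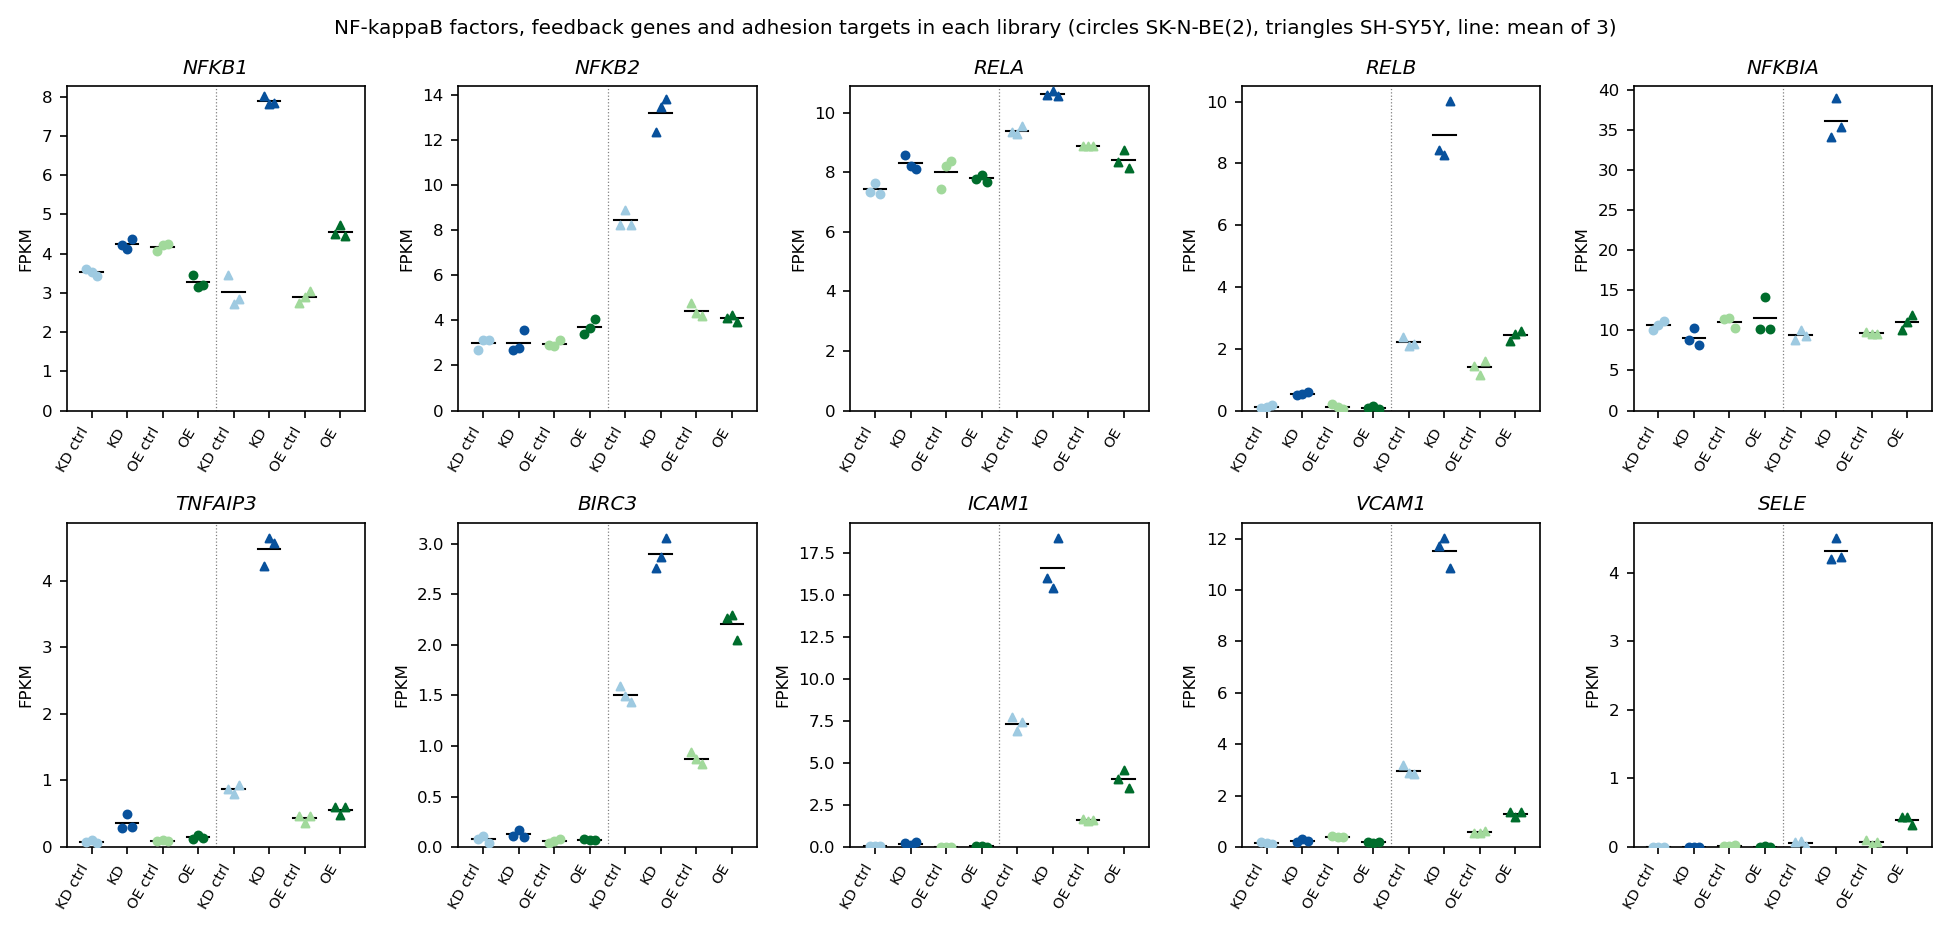
FPKM of the 10 genes in each of the 24 libraries (y axis, linear, from 0), 1 panel per gene, with the 8 groups on the x axis (KD: knockdown, OE: overexpression, ctrl: the matching empty vector control; circles SK-N-BE(2), triangles SH-SY5Y, lines the means of 3). The SH-SY5Y knockdown libraries are highest in every panel, and RELB, TNFAIP3, BIRC3, ICAM1, VCAM1 and SELE stay under 1 FPKM in all SK-N-BE(2) libraries.

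Among the factor genes, RELB, the partner of the NFKB2 product in the non-canonical pathway, showed the largest rise. Its level was 8.42, 8.29 and 10.0 FPKM in the SH-SY5Y knockdown libraries and 2.38, 2.09 and 2.15 in the control. The knockdown mean was 4.03 times the control mean (log2 change 1.62 ± 0.0812 SE, limma adjusted p = 1.01e-12). NFKB1, which encodes the usual partner of RELA, was at 8.01, 7.82 and 7.85 FPKM against 3.47, 2.71 and 2.85. The groups were well apart and the change was 1.15 (limma adjusted p = 4.44e-13). NFKB2, the precursor gene of the non-canonical pathway, was at 12.4, 13.4 and 13.8 FPKM against 8.22, 8.89 and 8.21, a smaller rise of 0.59 (limma adjusted p = 1.18e-06). RELA, which encodes the main activating subunit and which most cells express steadily, was at 10.6, 10.7 and 10.6 FPKM against 9.36, 9.27 and 9.56. Its groups did not overlap, yet the change was 0.16 (limma adjusted p = 0.00148) and was not called after scaling to a fixed sum (0.07, limma adjusted p = 0.172).

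The feedback genes rose as well. NFKBIA, whose product retains NF-kappaB in the cytoplasm and is resynthesised after each activation, was at 34.1, 39.0 and 35.4 FPKM in the knockdown libraries against 8.82, 10.0 and 9.29 in the control. That is 3.85 times the control mean (log2 change 1.84 ± 0.0980 SE, limma adjusted p = 2.72e-12), and in every other library of the study NFKBIA lay between 8.14 and 14.2 FPKM. TNFAIP3, a ubiquitin-editing enzyme that shuts off signalling upstream of IKK, was at 4.22, 4.64 and 4.57 FPKM against 0.878, 0.797 and 0.928. No control library reached 1 FPKM, and the change was 1.55 (limma adjusted p = 7.23e-14). BIRC3, a ubiquitin ligase that protects cells from death receptor signals and holds the non-canonical pathway in check, was at 2.77, 2.87 and 3.06 FPKM against 1.59, 1.49 and 1.43. This was the smallest rise of the 3 feedback genes, 0.64 (limma adjusted p = 4.63e-09).

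The adhesion genes rose too, from unlike starting levels. ICAM1, a ligand of leucocyte integrins, was at 16.0, 15.4 and 18.4 FPKM after knockdown against 7.71, 6.87 and 7.41. It was thus already well expressed in the control, and it rose by 1.07 (limma adjusted p = 1.43e-10). VCAM1, which binds the lymphocyte and monocyte integrin VLA-4, was at 11.7, 12.0 and 10.9 FPKM against 3.20, 2.87 and 2.84, a rise of 1.66 (limma adjusted p = 8.71e-15). SELE, the E-selectin gene, known as a product of activated endothelium, was at 4.20, 4.51 and 4.22 FPKM against 0.0749, 0.0869 and 0.0206. The knockdown mean was 70.8 times the control mean, but the divisor was under 0.1 FPKM in every control library, so the ratio is imprecise. The log2 change was 2.32 ± 0.0558 SE (limma adjusted p = 1.22e-17). SELE shares exon sequence on its own strand with the annotated gene AL021940.1 (GENCODE 29), so fragments of the pair may have been split, and its level is uncertain to that extent.

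The choice of control changed the sizes but no direction in this comparison. Against the SH-SY5Y overexpression control, made with the other empty vector, all 10 genes were again called higher (58.2% of tested genes were called), with a median of 1.87. ICAM1 then rose by 2.76, VCAM1 by 2.99, NFKB2 by 1.39 and BIRC3 by 1.06, each more than 1.5 times the change against the knockdown's own control. NFKB1, NFKBIA and SELE were nearly the same against either control, at 1.19, 1.80 and 2.31.

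**Figure D2:**
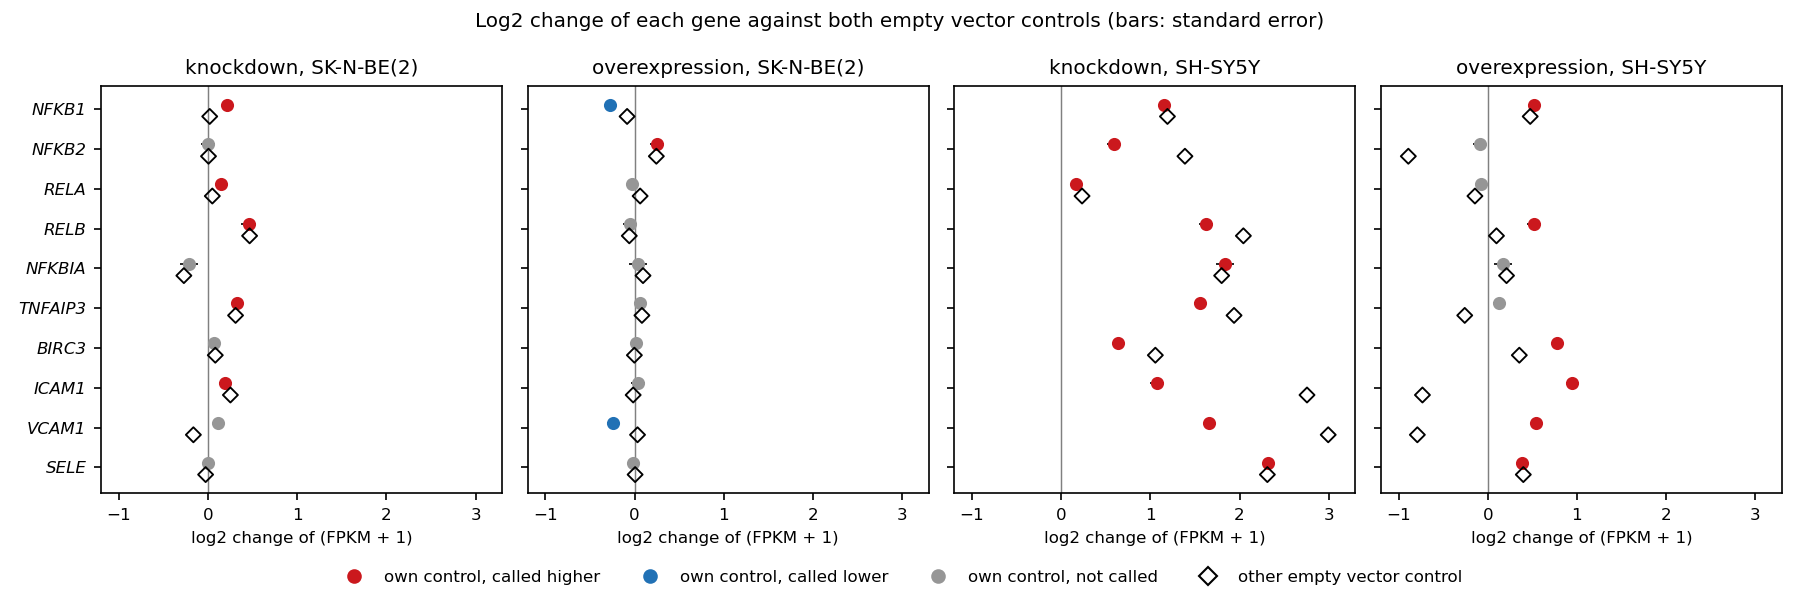
Log2 change of (FPKM + 1) of each gene (x axis) in the 4 comparisons, against the construct's own empty vector control (filled circles with standard error; red called higher, blue called lower, grey not called) and against the other empty vector control of the line (open diamonds). In SH-SY5Y knockdown all symbols lie to the right of 0, while in SH-SY5Y overexpression ICAM1 and VCAM1 lie on opposite sides of 0 for the 2 controls.

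NDUFS6 overexpression in SH-SY5Y also gave higher levels of part of the genes, with 6 of 10 called higher and the other 4 not called, where 15.4% of tested genes were called higher. ICAM1 was at 4.03, 4.57 and 3.49 FPKM against 1.67, 1.54 and 1.58 in its control, a rise of 0.95 (limma adjusted p = 1.27e-08). BIRC3 was at 2.26, 2.30 and 2.05 FPKM against 0.936, 0.870 and 0.820, a rise of 0.77 (limma adjusted p = 4e-09). In both genes every overexpression library was above every control library.

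The other called genes changed by less. VCAM1 was at 1.36, 1.16 and 1.38 FPKM against 0.531, 0.541 and 0.643 (0.55, limma adjusted p = 1.16e-06). RELB was at 2.24, 2.49 and 2.57 FPKM against 1.45, 1.16 and 1.61 (0.52, limma adjusted p = 5.96e-05). NFKB1 was at 4.50, 4.74 and 4.45 FPKM against 2.73, 2.91 and 3.05 (0.51, limma adjusted p = 6.51e-07). SELE stayed under 1 FPKM, at 0.444, 0.436 and 0.318 against 0.101, 0.0358 and 0.0699 (0.39, limma adjusted p = 2.2e-05). NFKB2, RELA, NFKBIA and TNFAIP3 were not called, with changes of -0.09, -0.07, 0.17 and 0.13. RELA and NFKBIA, the main canonical subunit and its inhibitor, were thus among the genes that did not pass the test.

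These overexpression results depended on the control. Against the knockdown's empty vector control, 3 of the genes were called higher and 5 lower, where 55.4% of tested genes were called. ICAM1 was then lower by -0.73 (limma adjusted p = 6.18e-08) and VCAM1 by -0.79 (limma adjusted p = 1.3e-09), both opposite to the change against the matching control. NFKB2 (-0.89), TNFAIP3 (-0.26) and RELA (-0.14) were called lower as well. RELB was not called (0.10, limma adjusted p = 0.327). NFKB1 (0.48), BIRC3 (0.35) and SELE (0.40) kept a higher call against both controls.

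The empty vector controls of SH-SY5Y themselves differed, in 6 of the 10 genes (36.2% of tested genes were called). ICAM1 was 4.60 times as high in the knockdown control as in the overexpression control (7.33 ± 0.424 against 1.59 ± 0.0646 FPKM, SD, n = 3; log2 difference 1.68, limma adjusted p = 1.12e-12). VCAM1 was 5.19 times as high (2.97 ± 0.197 against 0.572 ± 0.0618 FPKM; 1.34, limma adjusted p = 1.8e-12). NFKB2 (0.80), BIRC3 (0.42), RELB (0.42) and TNFAIP3 (0.39) were higher too. The RELB difference was not called with a pseudocount of 0.1 (limma adjusted p = 0.0542). NFKB1, RELA, NFKBIA and SELE were not called between these controls, with differences from -0.04 to 0.07.

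**Figure D3:**
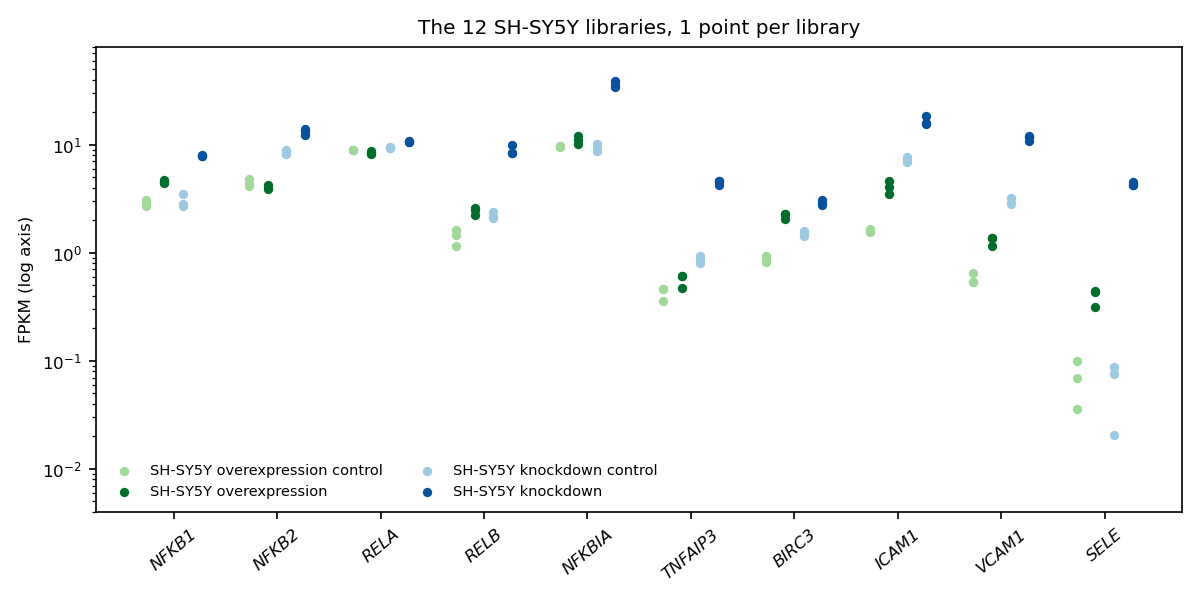
FPKM of the 10 genes in the 12 SH-SY5Y libraries (y axis, log scale), 1 point per library, with the groups side by side for each gene. For ICAM1 and VCAM1 the 4 groups form 4 separate steps, overexpression control, overexpression, knockdown control and knockdown, whereas NFKBIA has only its knockdown libraries set apart.

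Ordered by level, the SH-SY5Y groups stood in another order than for NDUFS6 itself, which was lowest after knockdown and highest after overexpression. ICAM1 and VCAM1 went from knockdown through knockdown control and overexpression to overexpression control, each step without overlap, and TNFAIP3 had the same order. BIRC3 went from knockdown (2.90 ± 0.149 FPKM) to overexpression (2.20 ± 0.135), knockdown control (1.51 ± 0.0813) and overexpression control (0.875 ± 0.0586), again without overlap. For NFKB1 and SELE the 2 controls lay lowest of the SH-SY5Y groups and overlapped each other. RELB overlapped between overexpression and knockdown control. RELA spanned only 8.14 to 10.7 FPKM over the SH-SY5Y libraries.

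The effects of knockdown and overexpression, each against its own control, were tested against each other. In SH-SY5Y the knockdown effect exceeded the overexpression effect in 8 genes (42.9% of tested genes were called). SELE (1.94), NFKBIA (1.67), TNFAIP3 (1.42), VCAM1 (1.11) and RELB (1.11) had the largest differences. TNFAIP3 and SELE were tested only through the SH-SY5Y knockdown libraries, so their difference was set by the filter and is a description. NFKB2 (0.68), NFKB1 (0.64) and RELA (0.23) were called also, RELA not after scaling to a fixed sum (0.11, limma adjusted p = 0.15). For ICAM1 (0.12, limma adjusted p = 0.368) and BIRC3 (-0.13, limma adjusted p = 0.182) no difference between the effects was called, and both genes were called higher by each construct against its matching control. BIRC3 was called lower after scaling to a fixed sum (-0.23, limma adjusted p = 0.0244).

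Several of the genes were at low levels in SK-N-BE(2). RELB, BIRC3, VCAM1 and ICAM1 were under 1 FPKM in all 12 SK-N-BE(2) libraries, as were TNFAIP3 and SELE, and SELE was listed at 0 in 8 of the 12. The highest SK-N-BE(2) value of ICAM1 was 0.291 FPKM, against a lowest SH-SY5Y value of 1.54. Compared over the empty vector controls, 7 genes were lower in SK-N-BE(2) than in SH-SY5Y and 2 higher, where 77.3% of tested genes were called. ICAM1 (-2.17), RELB (-1.31), BIRC3 (-1.02) and VCAM1 (-0.97) were furthest down, followed by NFKB2 (-0.85), TNFAIP3 (-0.58) and RELA (-0.22). ICAM1, RELB, BIRC3, VCAM1 and TNFAIP3 passed the filter only through SH-SY5Y libraries, so their lower calls are a description. NFKB1 was higher by 0.29. NFKBIA was higher by 0.17 (limma adjusted p = 0.0293), a call lost without SK-N-BE(2) knockdown control replicate 3, SK-N-BE(2) overexpression control replicate 1 or 2, or SH-SY5Y knockdown control replicate 1 (limma adjusted p from 0.0563 to 0.0697) and with no filter on low values (0.0538). SELE was not called (-0.08) unless a pseudocount of 0.1 was used (-0.57, limma adjusted p = 0.00105).

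After knockdown of NDUFS6, SK-N-BE(2) cells had 5 genes called higher and 5 not called, against a background of 27.4% called higher. RELB was at 0.514, 0.520 and 0.599 FPKM against 0.0836, 0.10 and 0.196 in the control. The groups did not overlap, the knockdown mean was 4.31 times the control mean, and the log2 change was 0.46 (limma adjusted p = 7.68e-05). TNFAIP3 was at 0.284, 0.497 and 0.305 FPKM against 0.0818, 0.102 and 0.0623, 4.42 times the control mean (0.33, limma adjusted p = 0.000252). In SH-SY5Y the ratios of RELB and TNFAIP3 were 4.03 and 5.16, at higher levels in both groups.

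The more abundant factor genes moved little. NFKB1 was at 4.23, 4.13 and 4.38 FPKM against 3.60, 3.52 and 3.44 (0.21, limma adjusted p = 0.00236). RELA was at 8.59, 8.22 and 8.10 FPKM against 7.35, 7.65 and 7.27 (0.14, limma adjusted p = 0.00398). Neither kept its call against the other empty vector control (0.02 and 0.05). NFKB2, at 2.66, 2.78 and 3.55 FPKM against 2.68, 3.14 and 3.14, overlapped fully.

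ICAM1 was at 0.216, 0.123 and 0.291 FPKM after SK-N-BE(2) knockdown against 0.0378, 0.0687 and 0.0576 (0.20, limma adjusted p = 0.0301). Its call was lost when knockdown replicate 1 or 3 or any 1 control library was left out (limma adjusted p from 0.05 to 0.135) and with no filter on low values (0.0559). VCAM1 (0.11), BIRC3 (0.07) and NFKBIA (-0.21) were not called, and SELE was listed at 0 in all 6 of these libraries. With a pseudocount of 0.1 VCAM1 was called higher (0.44, limma adjusted p = 0.0138). NFKBIA, at 8.75, 10.3 and 8.14 FPKM against 10.0, 10.7 and 11.2, was called lower without knockdown replicate 2 (-0.30, limma adjusted p = 0.0198).

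Against the overexpression control of SK-N-BE(2), 3 genes were called higher and 2 lower (47.7% of tested genes were called). RELB (0.47), TNFAIP3 (0.31) and ICAM1 (0.25) were called higher there as well. NFKBIA was lower (-0.27, limma adjusted p = 0.0282), and VCAM1 turned from 0.11 to -0.16 (limma adjusted p = 0.0318).

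Overexpression in SK-N-BE(2), where NDUFS6 itself rose least, called 3 of the 10 genes against a background of 29.7%. NFKB1 fell from 4.07, 4.22 and 4.24 FPKM in the control to 3.45, 3.16 and 3.19 (-0.28, limma adjusted p = 0.000956). VCAM1 fell from 0.431, 0.391 and 0.386 to 0.201, 0.163 and 0.188 FPKM (-0.24, limma adjusted p = 0.00549). NFKB2 rose from 2.91, 2.86 and 3.13 to 3.41, 3.68 and 4.08 FPKM (0.25, limma adjusted p = 0.017). Against the other control (40.3% of tested genes called) NFKB2 alone was called (0.24), with NFKB1 at -0.08 and VCAM1 at 0.03. The NFKB2 call was lost without overexpression replicate 3 (0.20, limma adjusted p = 0.092) or control replicate 1 (0.24, limma adjusted p = 0.0538), and when the 2 groups were fitted alone (limma adjusted p = 0.0911).

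Between the SK-N-BE(2) empty vector controls, VCAM1 (-0.28, limma adjusted p = 0.00132) and NFKB1 (-0.20, limma adjusted p = 0.00872) were lower in the knockdown control, where 34.5% of tested genes were called. These are the genes whose overexpression calls were lost against the other control. RELA was not called (-0.10, limma adjusted p = 0.0667), but was called lower after scaling to a fixed sum (-0.19) and without overexpression control replicate 1 (-0.14). That scaling moved the share of calls that were higher in the knockdown control from 45.1% to 25.0%.

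Within SK-N-BE(2) the knockdown effect exceeded the overexpression effect in 5 genes (47.8% of tested genes were called): RELB (0.51), NFKB1 (0.49), VCAM1 (0.36), TNFAIP3 (0.27) and RELA (0.18). TNFAIP3 was not called without knockdown replicate 2 (0.20, limma adjusted p = 0.0748). NFKB2 (-0.25, limma adjusted p = 0.0578) just missed the threshold, and was called lower without knockdown replicate 3, knockdown control replicate 1 or overexpression replicate 1 (limma adjusted p from 0.00489 to 0.0289). Scaling to a fixed sum moved the median of all genes in this comparison to 0.10, and to -0.11 in the same comparison of SH-SY5Y. The share of calls that were higher went from 52.0% to 67.4% in SK-N-BE(2) and from 46.8% to 32.4% in SH-SY5Y.

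The difference between the lines was tested directly. The knockdown effect was smaller in SK-N-BE(2) than in SH-SY5Y for 9 of the genes, all but RELA, with 55.8% of tested genes called. SELE (-2.32), NFKBIA (-2.05), VCAM1 (-1.55), TNFAIP3 (-1.22) and RELB (-1.17) had the largest differences. Those of SELE, listed at 0 in all 6 SK-N-BE(2) libraries compared, and of TNFAIP3 are a description, since both genes were tested only through the SH-SY5Y knockdown libraries. RELB, BIRC3, ICAM1 and VCAM1 passed the filter only through SH-SY5Y libraries, so their differences between the lines are a description too. Since the scale is log2(FPKM + 1), an equal ratio at a lower level gives a smaller value. With a pseudocount of 0.1 the differences of RELB (-0.42, limma adjusted p = 0.319) and ICAM1 (-0.19, limma adjusted p = 0.541) were not called. The other 7 kept their call. Under scaling to a fixed sum, which moved the median of all genes in this comparison to 0.16 and the share of calls that were higher from 52.8% to 69.5%, RELA turned from -0.02 to 0.16 (limma adjusted p = 0.0275), close to that median.

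For overexpression the effect differed between lines in 7 genes (36.8% of tested genes were called). It was smaller in SK-N-BE(2) for ICAM1 (-0.91), NFKB1 (-0.79), VCAM1 (-0.79), BIRC3 (-0.76), RELB (-0.57) and SELE (-0.41). It was larger for NFKB2 (0.34, limma adjusted p = 0.0162), which was not called without SK-N-BE(2) overexpression replicate 3 (0.29, limma adjusted p = 0.0504) or after scaling to a fixed sum (0.27, limma adjusted p = 0.0559). That scaling moved the share of calls that were higher from 49.8% to 38.1%. ICAM1, VCAM1, BIRC3, RELB and SELE passed the filter only through SH-SY5Y libraries, so their differences between the lines are a description. NDUFS6 rose far more in SH-SY5Y, so the lines were not compared at a matched dose.

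Other genes of the pathway were followed as lists by role, none holding any of the 10 genes. Their counts are read against 56.0% of all tested genes called in SH-SY5Y knockdown (26.3% higher). There, receptors and adaptors had 11 called higher and 1 lower of 16 tested (23 were listed), with a median of 0.37. TRAF1, an adaptor of tumour necrosis factor receptors, was at 6.22, 6.99 and 7.95 FPKM against 0.925, 1.23 and 1.13 (1.94, limma adjusted p = 4.16e-12). TNFRSF1A, the main tumour necrosis factor receptor, was at 10.2, 8.71 and 9.36 FPKM against 2.87, 2.71 and 2.52 (1.49, limma adjusted p = 1.63e-11). IRAK1, a kinase of the interleukin-1 and Toll-like receptor pathways, was at 28.9, 31.3 and 32.8 FPKM against 13.7, 14.2 and 13.3 (1.12, limma adjusted p = 7.62e-12). The rule by which these genes were named required groups without overlap.

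Further target genes had 15 called higher and 2 lower of 22 tested in SH-SY5Y knockdown. The list held 31 genes, and those not tested did not pass the filter. The median of the tested targets was 0.56, against -0.01 over all tested genes. The chemokine gene CXCL8 was at 19.0, 18.5 and 25.2 FPKM against 3.36, 3.53 and 3.502 (2.28, limma adjusted p = 2.8e-13). CXCL1, another neutrophil chemokine, was at 2.35, 2.48 and 3.06 FPKM against 0.153, 0 and 0.120 (1.73, limma adjusted p = 2.64e-13). No control library of CXCL1 reached 1 FPKM, so the knockdown libraries helped it pass the filter, and its rise is a description. The counts and the median of this list include CXCL1, so they are a description too. SOD2, the mitochondrial superoxide dismutase, was at 20.3, 20.5 and 21.6 FPKM against 8.90, 8.24 and 8.99 (1.17, limma adjusted p = 4.66e-14). The targets called lower were GADD45B (-0.29) and TNFAIP8 (-0.17), and both were called higher against the other empty vector control (0.27 and 0.33). Against that control 21 of the 22 targets were called higher.

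In the same comparison, IKK and upstream kinases had 3 called higher and 1 lower of 10, below the 56.0% called over all genes, with MAP3K8 at 0.84 and the catalytic IKK subunits CHUK and IKBKB at 0.32 and 0.22. The remaining Rel family and inhibitor genes had 3 higher and 1 lower of 6, the higher ones being NFKBIZ (0.62), NFKBIE (0.51) and NFKBIB (0.37). Ubiquitin regulators had 6 higher and 0 lower of 12, below 56.0% when counted in either direction. All of these calls were higher, however, and 26.3% of tested genes were called higher. By adjusted p the first were BIRC2 (0.48), TNIP1 (0.52) and RBCK1 (0.39). Other adhesion receptors of leucocyte traffic were divided, 5 higher and 4 lower of 10, with ALCAM (1.22) and JAM2 (0.68) higher and F11R (-0.98) lower. Against the other control each of these named genes kept its direction and call, but TNFRSF1A went to 2.90, NFKBIZ to 1.40, CHUK to 0.17 and ALCAM to 0.47.

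**Figure D4:**
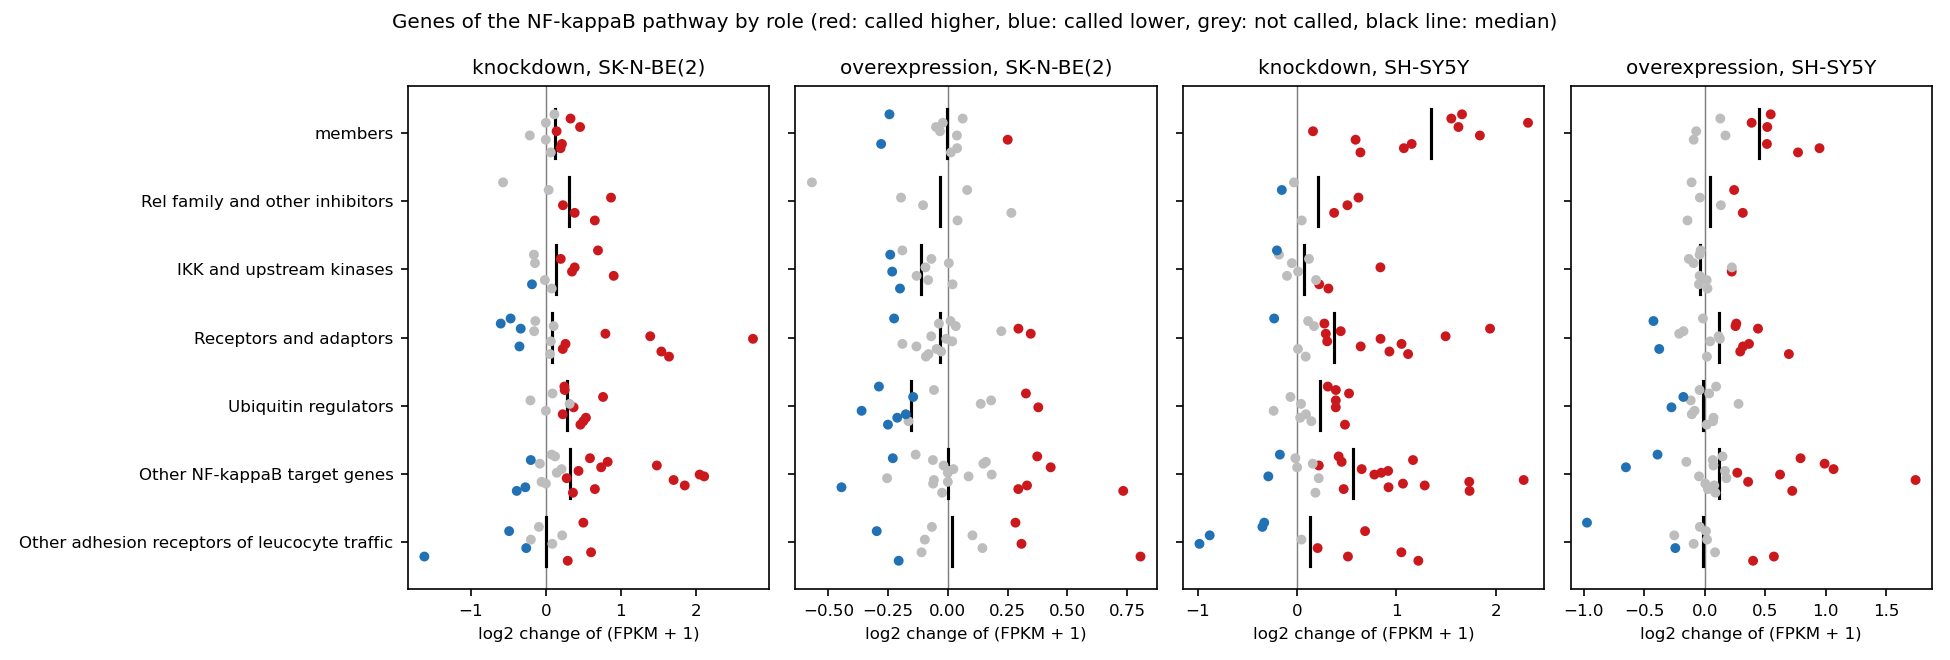
Log2 change of (FPKM + 1) against the matching control (x axis, scaled separately in each panel) for the 10 genes of this report (top row) and 6 lists of other pathway genes, 1 point per gene (red called higher, blue called lower, grey not called), with the median as a black line. In SH-SY5Y knockdown the median of the 10 genes is 1.35 and the list medians lie between 0.07 and 0.56, while in SK-N-BE(2) knockdown the median of the 10 is 0.13 and that of other target genes 0.32.

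In SK-N-BE(2) knockdown 55.7% of all tested genes were called (27.4% higher). Counted in either direction, the called share of each pathway list lay above 55.7%, in small lists of 6 to 22 tested genes, and the excess was not tested. By direction the lists differed: ubiquitin regulators and the Rel family and other inhibitors had higher calls only (8 of 12 and 4 of 6). Every other list also held lower calls. Other target genes had 12 called higher and 3 lower of 22 tested, with a median of 0.32. GADD45B, a stress gene, was at 4.95, 4.76 and 4.96 FPKM against 0.478, 0.206 and 0.418 (2.11, limma adjusted p = 3.13e-12). CSF1, the macrophage growth factor, was at 6.72, 5.89 and 6.64 FPKM against 1.07, 0.893 and 1.20 (1.85, limma adjusted p = 1.14e-13). PLAU, the urokinase gene, was at 2.22, 1.84 and 1.88 FPKM against 0.131, 0 and 0.0732 (1.48, limma adjusted p = 1.06e-11). No control library of GADD45B or PLAU reached 1 FPKM, so the knockdown libraries may have helped them pass the filter. Their rises, and the count and median that include them, are a description. SOD2 (-0.20), CCL2 (-0.39) and CFLAR (-0.27) were called lower, but CCL2 was called higher against the other empty vector control (0.44).

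Receptors and adaptors had 7 higher and 4 lower of 16 in SK-N-BE(2) knockdown. TNFRSF12A, the receptor of the cytokine TWEAK, was at 10.5, 7.82 and 6.87 FPKM against 0.327, 0.391 and 0.388 (2.76, limma adjusted p = 5.67e-12). IL1R1, the interleukin-1 receptor, was at 4.12, 3.18 and 3.43 FPKM against 0.328, 0.543 and 0.522 (1.64, limma adjusted p = 2.28e-12). IRAK2 rose by 1.54. No control library of TNFRSF12A, IL1R1 or IRAK2 reached 1 FPKM, so the knockdown libraries may have helped them pass the filter. Their rises, and the count that includes them, are a description. TRAF1 (-0.34), TRAF3 (-0.60), TRAF6 (-0.47) and MYD88 (-0.35) were called lower, of which MYD88 alone was called against the other control (-0.26), with TRAF1 at 0.19, TRAF3 at -0.05 and TRAF6 at -0.02.

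The kinase list had 5 higher and 1 lower of 10 in SK-N-BE(2) knockdown, and MAP3K14, which drives NFKB2 processing, was at 2.87, 3.12 and 3.39 FPKM against 1.07, 1.43 and 1.11 (0.90, limma adjusted p = 3.58e-08). The Rel family and other inhibitors had 4 higher of 6, with NFKBIZ (0.87), BCL3 (0.65) and NFKBIB (0.38). No control library of BCL3 reached 1 FPKM, so its rise is a description as well. Ubiquitin regulators had 8 higher of 12, among them TAX1BP1 (0.76), CYLD (0.50) and BIRC2 (0.46). Other adhesion receptors had 3 higher and 3 lower of 10, with CD44 at -1.62 and JAM2 at -0.49 and MCAM at 0.50. Against the other control these named genes kept their calls, with NFKBIZ at 0.52, TAX1BP1 at 0.29, BIRC2 at 0.25, CD44 at -0.57, JAM2 at -0.77 and MCAM at 0.29.

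In SH-SY5Y overexpression 32.6% of all tested genes were called (15.4% higher). Other target genes had 8 called higher and 2 lower of 22, with CXCL8 at 1.75, PTGS2 at 0.99 and TNC at 0.79. No control library of PTGS2 reached 1 FPKM, so its rise is a description. Against the knockdown's empty vector control the targets had 5 higher and 12 lower, with TNC turned to -1.44, CXCL8 at 0.81 and PTGS2 at 0.45. Receptors and adaptors had 7 higher and 2 lower of 16, with IRAK1 at 0.70, TRAF5 at -0.42 and IRAK4 at -0.38, and the kinases 1 higher of 10 (MAP3K7, 0.22). Rel family and other inhibitors had 2 higher of 6 (NFKBIB, 0.32, and NKRF, 0.24), ubiquitin regulators 2 lower of 12 (RBCK1, -0.28, and TAX1BP1, -0.18), and other adhesion receptors 2 higher and 2 lower of 10, including MCAM at -0.97 and CD44 at 0.57. Against the knockdown's control CD44 was called lower (-0.66), the MAP3K7 call was lost (0.10), and receptors and adaptors had 5 higher and 8 lower, with TRAF5 at -0.66 and IRAK4 at -0.64. TAX1BP1 went to -0.49.

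In SK-N-BE(2) overexpression, with 29.7% of all tested genes called, ubiquitin regulators had 2 higher and 6 lower of 12, including RBCK1 (0.38), TNIP1 (0.33) and BIRC2 (-0.25). The kinases had 3 lower of 10, among them MAP3K7 (-0.23) and CHUK (-0.20), and 0 of the 6 Rel family and inhibitor genes were called by limma (1, NFKBIB, at an unadjusted p under 0.05; median -0.03). Receptors and adaptors had 2 higher and 1 lower of 16 (TNFRSF1B 0.35, TRAF1 0.30, TRAF6 -0.23). Other target genes had 5 higher and 2 lower of 22, with CCL2 at 0.73, NINJ1 at 0.43 and CFLAR at -0.45. Other adhesion receptors had 3 higher and 2 lower of 10, CD44 at 0.81, MCAM at 0.28 and JAM2 at -0.30.

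Many of these SK-N-BE(2) overexpression calls were lost against the knockdown's empty vector control. CCL2 went to -0.09, CD44 to -0.25 and TRAF1 to -0.23, all with the opposite sign and not called. RBCK1 (0.06), BIRC2 (-0.04), MAP3K7 (-0.10) and JAM2 (-0.02) were not called either. TNIP1 (0.39), NINJ1 (0.40), CFLAR (-0.27), CHUK (-0.13), TNFRSF1B (0.31), TRAF6 (-0.68) and MCAM (0.49) were called in the same direction against both controls. Ubiquitin regulators then had 3 higher and 2 lower of 12.

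The genes whose profile over the 24 libraries was most like that of each member were listed by Pearson correlation of log2(FPKM + 1). This is a description, since the libraries share their groups. SELE was most like CXCL1 (0.991), ICAM1 most like TNFRSF9 (0.993) and MMP9 (0.987), and RELB most like IRF1 (0.984). VCAM1 was nearest to HSD11B1 (0.991) and CCL5 (0.986), and CXCL12 was among the 3 nearest genes of TNFAIP3 (0.989). NFKB2 was nearest to FBN1 (0.984), BIRC3 to CYP7B1 (0.984), RELA to NACC2 (0.970), NFKBIA to HNRNPMP1 (0.969) and NFKB1 to KDELC2 (0.952). None of the 10 was among the 3 nearest genes of another, and HNRNPMP1 and ADAM2 were near both SELE and NFKBIA.

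The labelled cell type was checked with markers. Of 9 noradrenergic neuroblastoma markers, SK-N-BE(2) groups had all 9 at a mean of 1 FPKM or more and SH-SY5Y groups 8, tyrosine hydroxylase (TH) being the exception. Their summed level was 294 to 381 FPKM in SK-N-BE(2) knockdown against 602 to 611 in its control, and 660 to 688 in SH-SY5Y knockdown against 903 to 911. ICAM1, VCAM1 and SELE are also endothelial genes. In SH-SY5Y the 10 endothelial markers summed to 0.914 to 1.15 FPKM after knockdown and 0.647 to 0.912 in its control. None reached a mean of 1 FPKM. By mean, ESAM (0.496 against 0.226), VWF (0.203 against 0.0690), ROBO4 (0.167 against 0.0503), TIE1, TEK and EMCN were higher after knockdown than in its control. CLDN5 (0.0697 against 0.280), KDR (0.00416 against 0.122), CDH5 (0.00305 against 0.00947) and PECAM1 (0 against 0.00089) were lower. In SK-N-BE(2), EMCN alone reached 1 FPKM.

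Other marker lists moved with the groups. The 8 immune markers summed to 9.02 to 11.9 FPKM in SH-SY5Y knockdown against 2.02 to 2.78 in its control, of which CD68 made up a mean of 10.1 against 1.89. CD3E and LYZ were at 0 in the 3 knockdown libraries, PTPRC was at 0.0643 and ITGAM at 0.00995. The 10 stromal markers summed to 278 to 290 FPKM in SH-SY5Y knockdown, 143 to 148 in its control, 65.8 to 67.9 after overexpression and 63.9 to 67.2 in that control. COL3A1 led them at a mean of 157 FPKM after knockdown against 71.7. The part of the stromal genes in the changes of ICAM1, VCAM1 and the other genes was not tested. The 6 Schwann cell markers summed to 15.9 to 16.9 FPKM after SH-SY5Y knockdown against 12.5 to 13.1, nearly all of it PMP22.

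The gene positions are given from GENCODE 29, build hg38. ICAM1 (ENSG00000090339) lies at chr19:10270835-10286615 on the plus strand, VCAM1 (ENSG00000162692) at chr1:100719742-100739045 on the plus strand and SELE (ENSG00000007908) at chr1:169722641-169764705 on the minus strand. NFKBIA (ENSG00000100906) lies at chr14:35401511-35404749 on the minus strand, TNFAIP3 (ENSG00000118503) at chr6:137867188-137883312 and BIRC3 (ENSG00000023445) at chr11:102317450-102339403, both on the plus strand. NFKB1 (ENSG00000109320) lies at chr4:102501329-102617302, NFKB2 (ENSG00000077150) at chr10:102394110-102402529 and RELB (ENSG00000104856) at chr19:45001430-45038198, all on the plus strand, and RELA (ENSG00000173039) at chr11:65653596-65663094 on the minus strand. All 10 are protein coding. Annotated genes on the opposite strand overlap exons of ICAM1 (AC011511.2 and AC011511.5), RELA (AP001362.2) and TNFAIP3 (AL357060.1). The libraries were strand-specific, but the sources used here do not say whether fragments were counted by strand.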

How the data were processed

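Per the labels, total RNA was extracted with TRIzol and strand-specific TruSeq libraries were sequenced on an Illumina NovaSeq instrument. The submitters' processing notes name FastQC 0.11.2, STAR (no version), StringTie 1.3.1c and hg38. The authors deposited FPKM per gene. The sources used here give neither counting settings nor read numbers, so depth is unknown and precision rests on the 3 libraries of a group. All 24 libraries were fitted in 1 model of 8 groups (16 residual degrees of freedom) with limma 3.58.1 in R 4.3.3 (trend and robust options on) on log2(FPKM + 1) of the 15903 genes that reached 1 FPKM in 3 or more libraries. The fit was tested on simulated data. Errors of log2 changes are limma standard errors. Contrasts set every construct against its own empty vector, and lines, constructs and controls against each other.

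The settings varied were the pseudocount (0.1), the filter (36178 genes with none, 7219 with a mean of 5 FPKM or more), the scaling, the compared groups alone, the other empty vector, a replicate block, no trend or robust moderation, and each library left out. The members, lists, named-gene rule and tests were chosen with earlier results of these data known. From each pathway list, the up to 3 called genes with the smallest adjusted p and no overlap between groups were named per comparison. Genes named beyond that rule, such as those called against a list's trend, were chosen after their values were seen. Promoters were RefSeq's (GRCh38.p14), searched in 250 upstream bases. Values of 2 single genes outside the members are not reported here.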

Additional observations from a re-analysis of the deposited data

Results flagged for a closer look

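The effects of the constructs differed between the lines, by limma's test of the interaction, in the following genes. For knockdown, the effect in SK-N-BE(2) minus that in SH-SY5Y was -0.94 for NFKB1, -0.59 for NFKB2, -1.17 for RELB, -2.05 for NFKBIA, -1.22 for TNFAIP3, -0.57 for BIRC3, -0.88 for ICAM1, -1.55 for VCAM1 and -2.32 for SELE on the log2(FPKM + 1) scale (limma adjusted p from 3.7e-15 to 8.7e-05). SELE and TNFAIP3 were tested only because they passed 1 FPKM in the SH-SY5Y knockdown libraries, so their differences are a description. The same holds for RELB, BIRC3, ICAM1 and VCAM1, which passed only through SH-SY5Y libraries, and for the overexpression differences of these genes. Each of the 9 was higher in all 3 SH-SY5Y knockdown libraries than in their 3 controls. For overexpression, the difference was -0.79 for NFKB1, 0.34 for NFKB2, -0.57 for RELB, -0.76 for BIRC3, -0.91 for ICAM1, -0.79 for VCAM1 and -0.41 for SELE (limma adjusted p from 2.46e-07 to 0.0162). The summed levels of stromal markers and of CD68 moved with the SH-SY5Y knockdown group, as given above, and the degree of NDUFS6 change differed between the lines. Their part in these differences was not tested.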

How the results depend on the processing

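Counts of the 10 genes called changed by over 1.5 times under 2 settings. With a mean of at least 5 FPKM, only 3 of the genes (NFKB2, RELA and NFKBIA) were still tested, which gave for knockdown 1 call in SK-N-BE(2) and 3 in SH-SY5Y, for overexpression 1 and 0, for knockdown minus overexpression 2 and 3, between the empty vector controls 0 and 1, between the lines for knockdown 2, for overexpression 1 and for the controls 3. Against the other empty vector control, overexpression in SK-N-BE(2) called 1 gene. With 1 library left out, the count ranged from 4 to 6 (knockdown, SK-N-BE(2)), 10 to 10 (knockdown, SH-SY5Y), 2 to 3 (overexpression, SK-N-BE(2)), 6 to 6 (overexpression, SH-SY5Y), 9 to 9 (knockdown between lines), 6 to 7 (overexpression between lines), 4 to 6 and 8 to 8 (knockdown minus overexpression, SK-N-BE(2) and SH-SY5Y), 2 to 3 and 6 to 6 (between the controls) and 8 to 9 (controls between lines).

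Among single genes, 659 of the values under settings other than leaving out a library kept direction and side of the threshold, 12 gained a call, 14 lost one and 18 changed sign. Against the other empty vector control, the sign changed for ICAM1 (-0.73), VCAM1 (-0.79) and TNFAIP3 (-0.26) in SH-SY5Y overexpression, for VCAM1 in SK-N-BE(2) knockdown (-0.16), and, from values that were not called or lost their call, for RELA (0.062), BIRC3 (-0.0025), ICAM1 (-0.016), VCAM1 (0.033) and SELE (0.0059) in SK-N-BE(2) overexpression and NFKB2 in SK-N-BE(2) knockdown (0.0053). Scaling to a fixed sum gave a change of sign for NFKB2 in SK-N-BE(2) knockdown (0.076; 0.021 by median of ratios), NFKBIA in SK-N-BE(2) overexpression (-0.013), RELA between the lines (0.16 for knockdown, -0.042 for overexpression), and NFKB2 (-0.073) and RELB (-0.0014) between the SK-N-BE(2) controls. A pseudocount of 0.1 gave -0.11 for ICAM1 in knockdown minus overexpression of SH-SY5Y. The cause was not tested.

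Leaving out 1 library changed the sign of values near 0 that were not called: in SK-N-BE(2), NFKB2 in knockdown (-0.099 to 0.058), RELB (-0.10 to 0.0019) and NFKBIA (-0.11 to 0.11) in overexpression, and NFKB2 (-0.022 to 0.063), RELB (-0.045 to 0.061) and BIRC3 (-0.0053 to 0.038) between the controls; in SH-SY5Y, NFKB1 (-0.041 to 0.092), NFKBIA (-0.084 to 0.00019) and SELE (-0.033 to 0.017) between the controls; and RELA between the lines for knockdown (-0.040 to 0.00085) and overexpression (-0.0095 to 0.067).

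Groups share replicate numbers in the labels, but nothing says that a number marks a shared infection or day, and deviations of same-numbered libraries correlated between -0.076 and 0.37. With the number as a replicate block, knockdown called 5 genes in SK-N-BE(2) (4 higher and 1 lower) and 10 in SH-SY5Y, and overexpression 3 and 6. ICAM1 lost its call in SK-N-BE(2) knockdown (0.20, limma adjusted p = 0.0513), NFKBIA gained one (-0.21, 0.0277), and NFKB2 gained one in knockdown minus overexpression (-0.25, 0.0212). Values under 1 FPKM, most of those in SK-N-BE(2), rest on few fragments of unknown number.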
